A study of Mus musculus with 12 samples.

Results

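The 43 genes described here encode regulators that, in the embryo, set neural fates other than that of the somatic sensory neuron: autonomic and visceral neurons, neural tube progenitors and classes of spinal neuron. They were taken by symbol from a list of such regulators, and all 43 were found among the 55416 genes counted in dorsal root ganglia of adult mice. The series compares ganglia that lost Prdm12, whose zinc finger product is required in the embryo for nociceptors to arise, with control ganglia, in 12 poly(A) RNA libraries of strain C57Bl6. The 6 iKO libraries (iKO 1 to 6) carried Rosa26Cre ERT2 with Prdm12 Fl/Fl and received tamoxifen. Among the 6 controls, control 1 (Rosa26Cre ERT2; Fl/+), controls 2 and 3 (+/+; Fl/+, without Cre) and control 4 (Rosa26Cre ERT2; +/+) received tamoxifen as well. Controls 5 and 6 had the Fl/Fl genotype of the iKO animals, with the same Cre, and were given corn oil in place of tamoxifen. Tissue was taken 1 month after injection, per the series' design text. iKO 1, 2 and 3 and controls 1 and 2 were female, and the other 7 libraries male. The Rosa26 locus is active in most cell types and so does not limit Cre to neurons, and recombination by cell type was not measured. Nothing in the labels tells if the ganglia of 1 animal or of several went into a library, and p-values therefore measure the spread between these libraries, which may be technical in part.

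Libraries held 13943784 to 20377766 counts. Prdm12 was at 18.6 to 25.4 CPM (counts scaled to a library of 1000000) in iKO libraries, against 64.6 to 147 CPM in controls, without overlap (log2 fold change -2.33 ± 0.18 SE, adjusted p = 8.59e-05 in edgeR's quasi-likelihood test, adjusted over all genes by Benjamini-Hochberg). The antisense gene Gm13425 overlaps 8.09% of the exon bases of Prdm12, and without strand the reads there cannot be told apart. Gm13425 averaged 56.1 CPM in iKO and 91.4 CPM in control libraries (log2 fold change -0.69, edgeR adjusted p = 0.00157). The tissue label fits its defining genes: the summed level of 10 matched sensory neuron markers was 6530 to 8840 CPM in iKO and 7190 to 8410 CPM in control libraries. The iKO 1 library stood apart in cells other than neurons. It had 187 CPM of summed endothelial markers, where the other iKO libraries reached at most 80.7 and controls 107 CPM. For 6 fibroblast markers iKO 1 had 3870 CPM, the other iKO libraries at most 1600 and controls at most 2110 CPM. Control 6 had the highest summed skeletal muscle markers, at 372 CPM, and the highest summed oligodendrocyte markers, at 19.6 CPM. In bulk RNA, fewer cells of a type and less RNA per cell cannot be told apart.

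As background, the neural tube is divided into progenitor domains by homeodomain and basic helix-loop-helix factors that repress one another across each border, and the neurons born from each domain keep their own set of such factors. Sympathetic, parasympathetic and visceral sensory neurons instead depend on a different set of homeodomain factors, Phox2a among them, with Hand2, Gata2 and Gata3 acting in the sympathetic lineage. PRDM12 is a repressor that works with histone methyltransferases. In the spinal cord of the frog Xenopus, Prdm12 marks the progenitors of V1 interneurons and holds down the neighbouring-domain genes Dbx1 and Nkx6. The list thus asks whether programmes of this kind are silent in adult ganglia and whether any of them appears when Prdm12 is lost.

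The promoters of 3 members are shown: Nkx6-2, which was higher in iKO ganglia, its paralogue Nkx6-1 and Dbx1, the genes that Prdm12 holds down in the frog. Each runs from 250 bases before to 50 after the gene's start, 5′ to 3′ on the gene's strand, from RefSeq on GRCm38.p6, with CpG dinucleotides in capitals.
Nkx6-2, chr7:139582748-139583047, minus strand: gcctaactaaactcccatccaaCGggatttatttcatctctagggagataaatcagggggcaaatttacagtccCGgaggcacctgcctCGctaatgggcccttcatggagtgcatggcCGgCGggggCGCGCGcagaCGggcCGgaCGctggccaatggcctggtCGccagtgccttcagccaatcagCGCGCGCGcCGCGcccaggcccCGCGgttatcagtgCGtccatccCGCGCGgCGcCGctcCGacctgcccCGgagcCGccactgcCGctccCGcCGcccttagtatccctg
Nkx6-1, chr5:101664662-101664961, minus strand: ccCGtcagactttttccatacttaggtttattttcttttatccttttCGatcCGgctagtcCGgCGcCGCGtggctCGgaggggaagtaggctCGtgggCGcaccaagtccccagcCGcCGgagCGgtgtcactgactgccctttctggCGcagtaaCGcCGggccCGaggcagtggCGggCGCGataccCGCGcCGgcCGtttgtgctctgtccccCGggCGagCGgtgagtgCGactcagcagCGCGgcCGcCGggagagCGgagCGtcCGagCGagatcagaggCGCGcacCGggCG
Dbx1, chr7:49636786-49637085, minus strand: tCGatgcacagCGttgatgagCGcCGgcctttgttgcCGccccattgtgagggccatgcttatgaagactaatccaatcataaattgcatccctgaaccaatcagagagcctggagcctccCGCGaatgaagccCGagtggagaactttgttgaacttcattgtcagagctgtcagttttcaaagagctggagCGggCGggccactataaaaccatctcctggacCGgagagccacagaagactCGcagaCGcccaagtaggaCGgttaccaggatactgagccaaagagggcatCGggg
The Nkx6-2 promoter held 32 CpG, that of Nkx6-1 40 and that of Dbx1 15. The motif searched was CG, which reads the same on both strands, and 94.2% of promoters of the 27025 genes in the table hold at least 1. Dense CpG was common to the list: the 34 members with a promoter in the table had a median of 18.5 CpG in 300 bases, against 7 over all genes, and 29 of them lay above that median. Only 9.24% of all genes had as many as Nkx6-2. Skor2, Tbx3, Olig1, Bhlhe22, Lbx1, Hand1, Irx5, Pax3 and Lhx5 had no entry in the table. CpG content did not sort members by their level in controls. The medians were 17 for 8 members with no count, 20.5 for 18 with trace counts, 19.5 for 4 detected in some libraries and 12 for 4 detected in all, and the ranges of these classes overlapped. Where a gene had several promoters, only the first listed was used. Pax2, for example, had promoters with 7, 23 and 30 CpG. The medians and the number above the overall median depend on that choice.

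**Figure D1:**
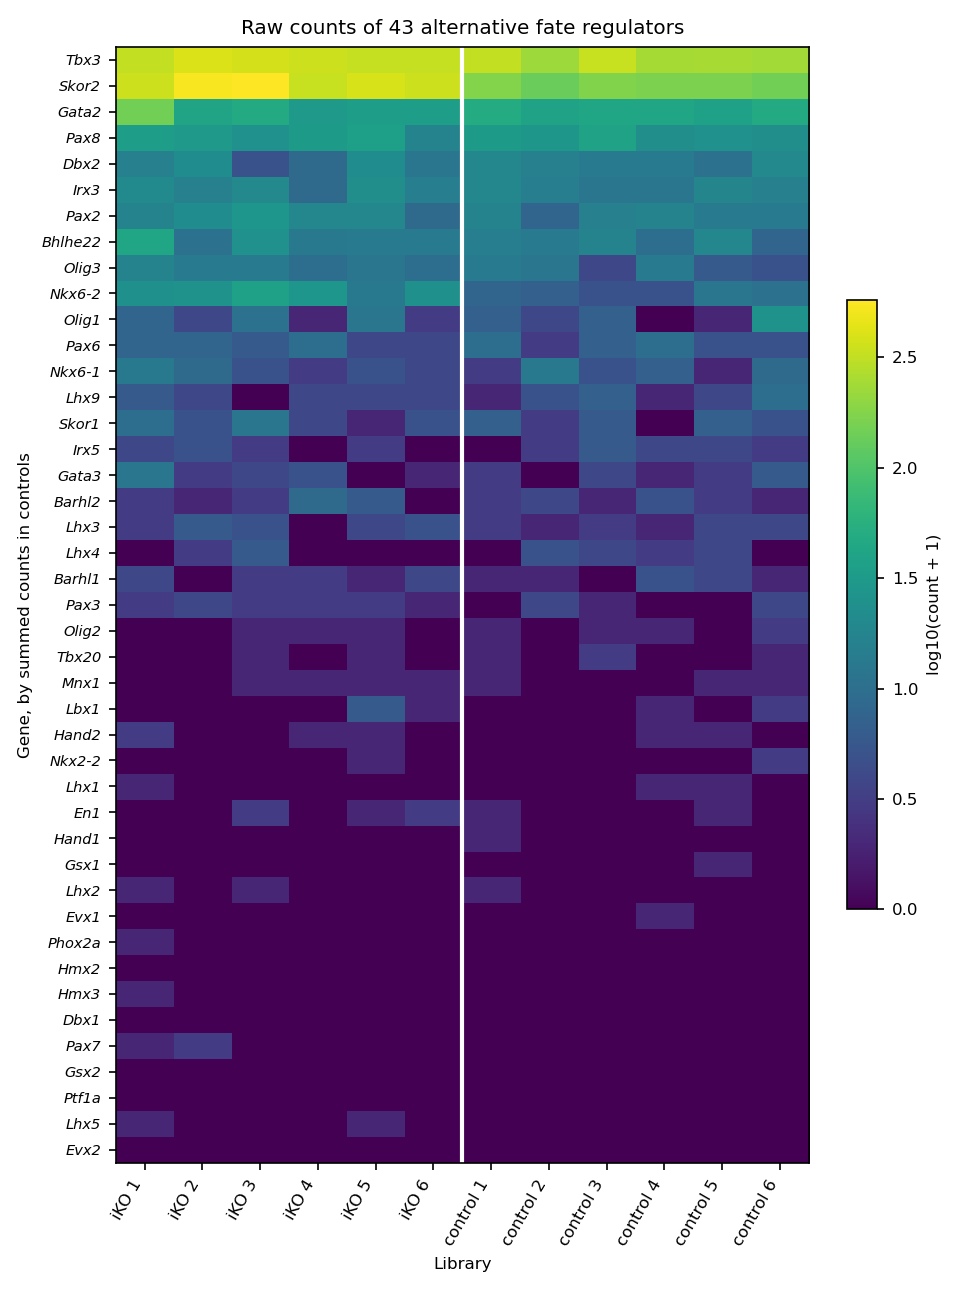
Raw counts of the 43 genes (rows, ordered by summed counts in controls) in each library (columns, iKO left of the white line and controls right of it), coloured as log10(count + 1). Tbx3 and Skor2 stand above all others in every library, and the lower rows are at or near 0 in both groups.

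Most of these regulators were silent or nearly so in control ganglia. Here a count of 10 in a library was taken as detection. In the 6 controls, 9 of the 43 had no count at all, 22 had some counts but fewer than 10 in every library, 6 reached 10 counts in some libraries, and 6 reached it in all. In iKO libraries the same classes held 8, 21, 8 and 6 genes. The plot of raw counts by library shows this as a long tail at or near 0. Skor2 and Tbx3 together made up 76.9% of the 6067 counts that fell on the list in iKO libraries and 69.9% of the 3670 in controls. The members without a count in controls were Phox2a, Hmx2, Hmx3, Dbx1, Pax7, Gsx2, Ptf1a, Lhx5 and Evx2. A count of 0 over the 6 controls allows a level of up to 0.0324 CPM of the summed raw total (3 counts, counting error only).

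No member that was silent in controls reached even 10 counts in an iKO library. Hmx2, Dbx1, Gsx2, Ptf1a and Evx2 had 0 counts in all 12 libraries. The other 4 members without a control count had 7 counts in all over the 6 iKO libraries. Phox2a had 1, Hmx3 1, Lhx5 2 and Pax7 3. In the other direction, Hand1, Gsx1 and Evx1 had 1 count each in controls and 0 in iKO libraries. In all, 33 members were too low for edgeR's filter, which asks for about 10 counts in at least 6 libraries. Their summed counts were 283 in iKO and 264 in control libraries, or 2.67 CPM in iKO and 2.85 CPM in controls of the summed raw totals. The ratio of 0.936 had a 95% interval of 0.788 to 1.11 from the exact binomial (Clopper-Pearson) method, which covers counting error only. Of the 28 with any count, 14 had the higher rate in iKO and 14 the higher rate in control libraries, and for none of them did such an interval exclude 1.

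Of the 43 members, 2 were called in the comparison of iKO with control (edgeR adjusted p under 0.05), and both were higher in iKO ganglia: Skor2 and Nkx6-2. Over all 16384 genes that passed the filter 0.946% were called, with 0.537% higher and 0.409% lower. Only 10 members passed, and Nkx6-2 passed through its iKO libraries, since just 2 of 6 controls reached 10 of its counts. The number called among those that passed is therefore no measure of the list. Fitted without a filter on low counts, 38 members had a count and could be tested. The same 2 were called (background 0.705% of 35885 genes, 0.407% higher), 21 of the 38 had positive and 17 negative fold changes, and Tbx3 had the smallest adjusted p of the other 36 (0.499 in edgeR). By role, the summed level of the 9 autonomic and visceral members was 21.7 to 25.8 CPM in iKO and 17.5 to 23.7 CPM in control libraries. Tbx3 made up most of this level in every library, and Gata2 most of the rest. The 16 progenitor members summed to 4 to 5.67 CPM in iKO and 3.19 to 5.8 CPM in controls, and both these sums overlapped between groups. The 18 spinal neuron members summed to 24.7 to 34.1 CPM in iKO and 12.9 to 17.4 CPM in controls, without overlap, and Skor2 made up most of that sum.

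**Figure D2:**
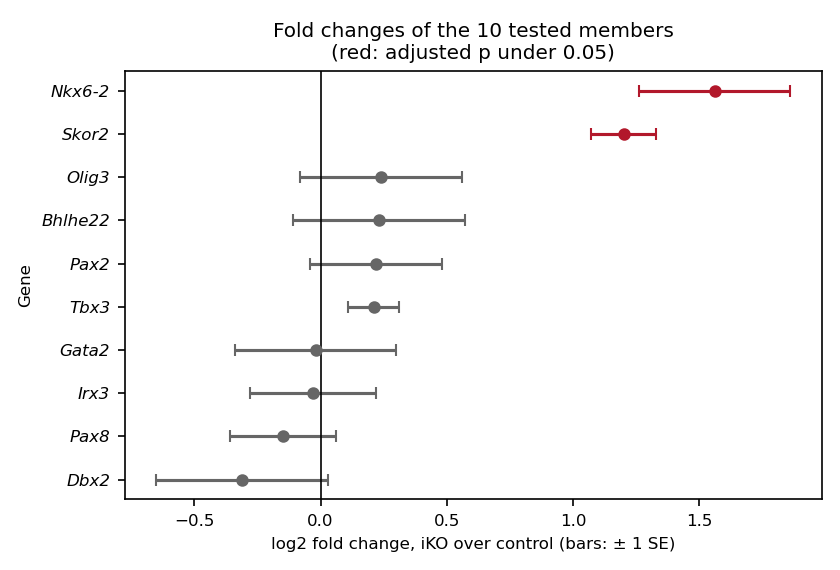
Log2 fold changes, iKO over control (x axis), of the 10 members that passed the filter, with bars of 1 SE on each side. Nkx6-2 (1.56) and Skor2 (1.20), in red, had an adjusted p under 0.05, and the other 8 lay between -0.31 and 0.24.

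Among spinal neuron regulators, Skor2 encodes a SKI-family corepressor best known from Purkinje cells of the cerebellum. Skor2 had 353, 538, 574, 336, 394 and 351 raw counts in iKO 1 to 6, against 174, 135, 170, 163, 162 and 146 in controls 1 to 6. Its levels were 18.9, 29.8, 28.6, 20, 24.8 and 21.6 CPM in iKO libraries and 10.9, 8.89, 10, 11.2, 11.8 and 9.01 CPM in controls. Every iKO library thus lay above every control, as was so for 0.879% of all genes tested. The groups of the other 9 tested members overlapped, where every iKO library lay below every control for 0.665% of all genes. The means were 24.0 ± 4.56 CPM in iKO and 10.3 ± 1.20 CPM in control libraries (SD, n = 6 each), a ratio of 2.32. The log2 fold change of Skor2 was 1.20 ± 0.13 SE, with edgeR adjusted p = 0.000181. Permuting the library labels exactly (2-sided, on log2(CPM + 0.1)) gave p = 0.00216, the smallest that 6 against 6 libraries allow. This permutation was run only for Prdm12 and members already called on the same libraries, so it adds no separate support. Skor2 was expressed in control ganglia already, so the change was from a low level and not from silence. Summed levels of 5 Schwann cell markers were 2610 to 4240 CPM in iKO and 2110 to 2920 CPM in control libraries, ranges that overlapped, and the part of these cells in the levels of Skor2 and Nkx6-2 was not tested.

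No called change was seen in the genes beside Skor2. Of 10 protein-coding gene models next to Skor2 in the GENCODE M21 annotation, 9 were tested and had log2 fold changes between -0.05 and 0.16, and the lowest edgeR adjusted p was 0.74. Skor1, the corepressor gene of the same family that marks dorsal horn neurons, had 1 to 11 counts per iKO library and 0 to 6 per control, sums of 32 in iKO and 23 in controls. Its depth-corrected ratio was 1.21, with a 95% counting interval of 0.689 to 2.17. No annotated gene shares exon bases with Skor2. Per kilobase of exon, Skor2 was the highest of the 10 tested members, at 7.63 CPM per kb in iKO and 3.28 CPM per kb in control libraries, ahead of Tbx3 at 3.04 and 2.63 CPM per kb.

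**Figure D3:**
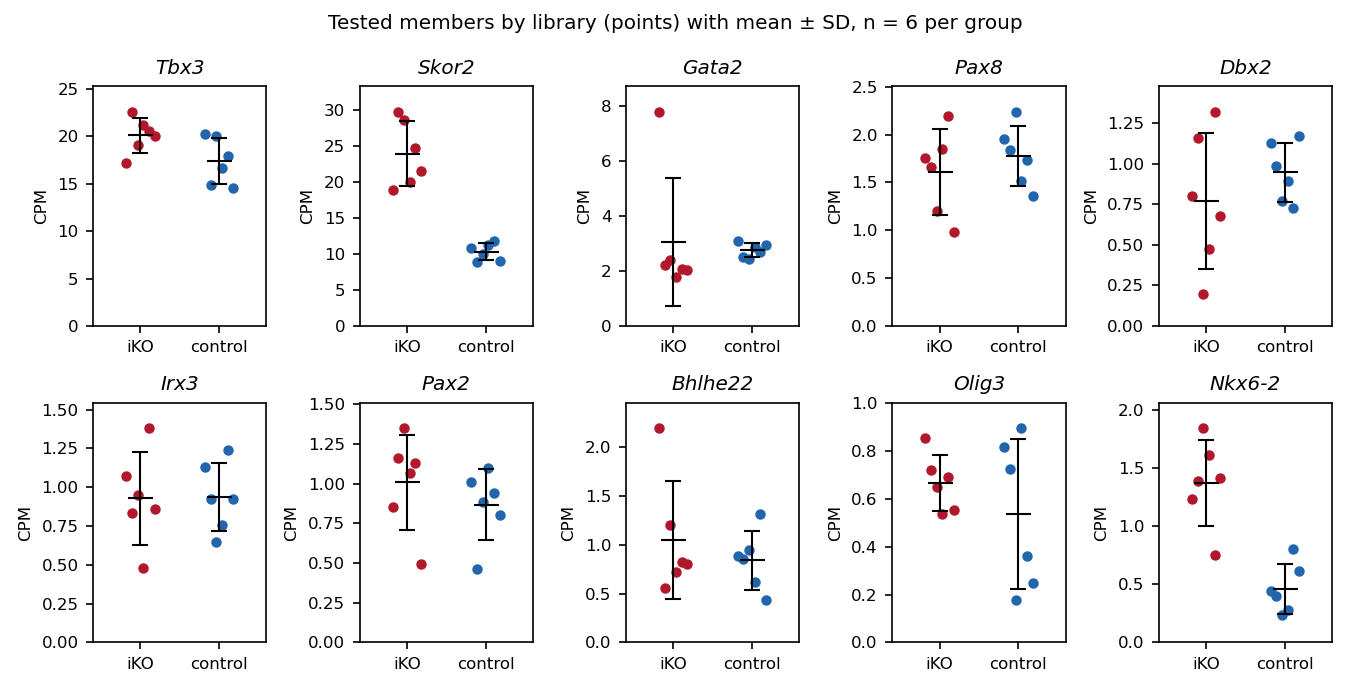
Level in CPM (y axis, from 0, each panel with its own scale) of the 10 members that passed the filter, in 6 iKO libraries (left, red) and 6 controls (right, blue), with black bars for mean ± SD. The groups are apart for Skor2 (18.9 to 29.8 against 8.89 to 11.8 CPM) and overlap in the other 9, and iKO 1 is the single high point for Gata2 (7.80 CPM) and Bhlhe22 (2.19 CPM).

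The other spinal neuron regulators showed no called change. Pax2, which marks inhibitory spinal interneurons, had 16, 21, 27, 18, 18 and 8 counts in iKO 1 to 6 and 16, 7, 15, 16, 13 and 13 in controls 1 to 6. These groups overlapped, with means of 1.01 ± 0.299 CPM in iKO and 0.867 ± 0.224 CPM in controls (SD, n = 6 each, log2 fold change 0.22 ± 0.26 SE). Pax8, a related paired-box factor of the same interneurons, was at 0.983 to 2.2 CPM in iKO and 1.36 to 2.24 CPM in controls (log2 fold change -0.15 ± 0.21 SE). Bhlhe22, a helix-loop-helix factor of dorsal horn interneurons, was at 0.555 to 2.19 CPM in iKO and 0.432 to 1.31 CPM in controls (log2 fold change 0.23 ± 0.34 SE). Its highest value was in iKO 1, the library with the raised endothelial and fibroblast markers, and without it the log2 fold change was -0.03. The part of those cells in the value was not tested.

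The remaining 14 spinal neuron regulators were near 0 in both groups. En1, the marker of V1 interneurons, had 5 counts over the iKO libraries and 2 over the controls. The V0 interneuron factor Evx1 had 0 counts in iKO libraries and 1 in controls, and its relative Evx2 had 0 in both. Mnx1, the motor neuron determinant, had 4 counts in iKO and 3 in control libraries. Lbx1, a determinant of dorsal horn neurons, had 6 counts in iKO, 5 of them in iKO 5, and 3 in controls. The LIM-homeobox genes Lhx3 and Lhx4, of motor neurons and V2 interneurons, had 18 and 7 counts in iKO against 12 and 12 in controls. Lhx1 and Lhx5, which act in inhibitory interneurons, had 1 and 2 counts in iKO, against 2 and 0 in controls. Lhx2 and Lhx9, factors of commissural dorsal neurons, had 2 and 17 counts in iKO, against 1 and 24 in controls. For Barhl1 and Barhl2, which act in the same dorsal class, the sums were 11 and 18 in iKO and 10 and 13 in controls. At so few counts only a very large change in a single gene could have been detected.

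Among progenitor regulators, Nkx6-2 encodes a homeodomain factor of the ventral neural tube that is also expressed in oligodendrocytes. Nkx6-2 had 23, 25, 37, 27, 12 and 23 raw counts in iKO 1 to 6, against 7, 6, 4, 4, 11 and 10 in controls 1 to 6. In CPM this was 1.23, 1.39, 1.84, 1.61, 0.755 and 1.41 in iKO libraries and 0.440, 0.395, 0.236, 0.276, 0.799 and 0.617 in controls. The groups overlapped by 1 library on each side, iKO 5 lying below control 5. The means were 1.37 ± 0.369 CPM in iKO and 0.461 ± 0.214 CPM in controls (SD, n = 6 each), a ratio of 2.98. The log2 fold change of Nkx6-2 was 1.56 ± 0.30 SE, with edgeR adjusted p = 0.0199. The exact 2-sided permutation test, run because the gene was called, gave p = 0.00433 and adds no separate support. In summed counts Nkx6-2 had 147 in iKO and 42 in control libraries, a depth-corrected ratio of 3.06 with a 95% counting interval of 2.16 to 4.41.

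The call of Nkx6-2 was less firm than that of Skor2. Leaving out any of iKO 4, iKO 6 or controls 1, 2 or 4 moved its edgeR adjusted p to between 0.05 and 0.0783, with log2 fold changes of 1.47 to 1.54. Inpp5a, an inositol phosphatase gene on the opposite strand, overlaps 12.9% of the exon bases of Nkx6-2, and without strand the reads there cannot be told apart. Inpp5a itself was at 21.1 ± 1.83 CPM in iKO and 21.3 ± 1.23 CPM in control libraries (SD, n = 6 each, log2 fold change -0.02 ± 0.07 SE). Summed markers of oligodendrocytes overlapped between groups, at 3.75 to 11.6 CPM in iKO and 3.27 to 19.6 CPM in controls. Most of that sum was Mobp, at 2.64 to 10.1 CPM in iKO and 2.25 to 16.3 CPM in controls. It was the only oligodendrocyte marker that passed the filter. Of 10 protein-coding neighbours of Nkx6-2 in the annotation, 8 were tested and had log2 fold changes of -0.38 to 0.26, and the lowest edgeR adjusted p was 0.59.

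The genes that Prdm12 opposes in the frog gave unlike values here. Nkx6-1, the paralogue of Nkx6-2, had 12, 8, 4, 2, 4 and 3 counts in iKO 1 to 6 and 2, 12, 4, 6, 1 and 8 in controls 1 to 6, a sum of 33 in each group. Its depth-corrected ratio was 0.873, with a 95% counting interval of 0.522 to 1.46. Dbx1 had 0 counts in all 12 libraries. Dbx2, the related factor of intermediate neural tube progenitors, had 15, 21, 4, 8, 21 and 11 counts in iKO 1 to 6 and 18, 15, 13, 13, 10 and 19 in controls 1 to 6. The groups overlapped (log2 fold change -0.31 ± 0.34 SE).

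Other progenitor regulators were low and without a called change. Pax6, the highest of the members with only trace counts in controls, had 7, 7, 5, 9, 3 and 3 counts in iKO 1 to 6 and 9, 2, 6, 9, 4 and 4 in controls 1 to 6, which gave 34 in each group. Olig3, a factor of dorsal progenitors, was at 0.537 to 0.855 CPM in iKO and 0.177 to 0.896 CPM in controls (log2 fold change 0.24 ± 0.32 SE). Irx3, an intermediate-domain factor that mesenchymal cells also use, was at 0.477 to 1.38 CPM in iKO and 0.649 to 1.24 CPM in controls (-0.03 ± 0.25 SE on the log2 scale). Olig1 of the oligodendrocyte lineage had 34 counts in iKO and 41 in control libraries, 25 of the 41 in control 6, the library with the highest oligodendrocyte markers. Its partner Olig2 had 3 counts in iKO and 5 in controls. Nkx2-2, which marks the most ventral progenitors, had 1 count in iKO and 2 in controls. Pax3, a dorsal neural tube and neural crest factor, had 12 counts in iKO and 7 in controls. Irx5, the neighbour and relative of Irx3, had 11 counts in iKO and 15 in controls.

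Regulators of autonomic and visceral neurons were either at trace counts or without a called change. Phox2a, which directs noradrenergic fate, had 1 count in all 12 libraries, in iKO 1. Hand2, the sympathetic determinant, had 4 counts over the iKO libraries and 2 over the controls. Gata3, which acts in sympathetic neurons, had 21 counts in iKO, 11 of them in iKO 1, and 13 in controls. Gata2 acts in sympathetic and V2b spinal neurons and is also an endothelial and mast cell factor. Gata2 had 146, 40, 48, 30, 33 and 33 counts in iKO 1 to 6 and 49, 38, 41, 42, 37 and 48 in controls 1 to 6. In CPM, iKO 1 was at 7.80, the other 5 iKO libraries were at 1.79 to 2.39 and the controls at 2.42 to 3.08. Over all libraries the log2 fold change of Gata2 was -0.02 ± 0.32 SE, and without iKO 1 it was -0.40 (edgeR adjusted p = 0.162). The iKO 1 library also had the highest summed mast cell markers, 34.7 CPM where the other iKO libraries reached at most 15.3 and controls 22.1 CPM, along with the endothelial markers given above. The part of those cells in its Gata2 level was not tested.

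Tbx3, a T-box repressor with roles in visceral organs, was the most abundant member in controls by count. Tbx3 was at 17.2, 22.6, 19.1, 21.2, 20.6 and 20 CPM in iKO 1 to 6 and 20.3, 14.9, 20, 16.7, 17.9 and 14.6 CPM in controls 1 to 6. The groups overlapped, although 5 of 6 iKO libraries lay above the control median. The means of Tbx3 were 20.1 ± 1.84 CPM in iKO and 17.4 ± 2.44 CPM in controls (SD, n = 6 each, log2 fold change 0.21 ± 0.10 SE). It did not pass after adjustment (edgeR adjusted p = 0.52, 0.0485 before it, where 9.52% of all genes tested had an unadjusted p under 0.05). Tbx20, which acts in the heart and hindbrain motor neurons, had 2 counts in iKO and 4 in controls. Hand1, Hmx2 and Hmx3 had at most 1 count in any library.

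Genes downstream of these fates gave no called change by the same test. Of 12 autonomic effector genes 7 were tested, and edgeR called 0, with 1 at an unadjusted p under 0.05 and limma-voom calling 0. This 1 gene was Slc5a7, the choline transporter, at 8.76 ± 2.03 CPM in iKO and 5.53 ± 1.66 CPM in controls (SD, n = 6 each, log2 fold change 0.69 ± 0.20 SE, edgeR adjusted p = 0.168), which DESeq2 did call (adjusted p = 0.0406). It was also called by edgeR without control 3 (0.84, adjusted p = 0.0334). Of 5 genes of central inhibitory neurons 2 were tested and 0 called by edgeR, DESeq2 or limma-voom. Of these, 1 had an unadjusted p under 0.05. Of 40 further fate regulators outside the list, 12 were tested and 0 called by any of these tools on all 12 libraries, with 1 at an unadjusted p under 0.05. That 1 was Tbx2, the T-box relative of Tbx3, at 26.2 ± 3.14 CPM in iKO and 21.5 ± 5.57 CPM in controls (SD, n = 6 each, log2 fold change 0.32 ± 0.14 SE). Tbx2 was called by edgeR against the tamoxifen-injected controls alone (0.50, adjusted p = 0.0333) and without control 5 (0.46, adjusted p = 0.0381). Marker lists of 8 cell types held no gene that edgeR called. All 5 Schwann cell genes tested had positive log2 fold changes (0.24 to 0.43, median 0.35, against 0.00 over all genes tested), 3 had an unadjusted p under 0.05 and DESeq2 called 1. Of the 10 sensory neuron genes 2 had an unadjusted p under 0.05, both called by DESeq2, and limma-voom called 0 of either list. In the other 6 lists 0 genes had an unadjusted p under 0.05 and DESeq2 and limma-voom also called 0. The smallest p of each was for Mobp of oligodendrocytes (log2 fold change -0.23 ± 0.57 SE), Myh4 of skeletal muscle (-1.05 ± 0.74 SE), Tek of endothelium (-0.20 ± 0.17 SE), Col1a1 of fibroblasts (0.37 ± 0.31 SE), Cpa3 of mast cells (-0.40 ± 0.29 SE) and Ms4a1 of B lymphocytes (-0.71 ± 0.48 SE). Mobp was the only gene tested of its list.

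The controls differed in agent and in genotype, and Nkx6-2 differed with them. Prdm12 itself was at 107 to 139 CPM in the tamoxifen-injected controls. The 2 corn-oil controls lay on either side of that range, control 5 at 147 CPM and control 6 at 64.6 CPM. Skor2 was at 8.89 to 11.2 CPM in the 4 tamoxifen-injected controls and at 9.01 and 11.8 CPM in the corn-oil controls, so both kinds of control overlapped. Its log2 fold change was 1.23 against the tamoxifen-injected controls alone (edgeR adjusted p = 0.00137) and 1.10 against the 2 corn-oil controls alone, where the call was lost (edgeR adjusted p = 0.311). For Nkx6-2, the tamoxifen-injected controls were at 0.236 to 0.440 CPM and the corn-oil controls at 0.617 and 0.799 CPM, without overlap. These levels rest on 4 to 7 raw counts in the former and 11 and 10 in the latter. With so few libraries such a gap is easily had, and its share over all genes was not computed. Its log2 fold change was 2.03 against the tamoxifen-injected controls (edgeR adjusted p = 0.00644) and 0.84 against the 2 corn-oil controls (adjusted p = 1). The corn-oil controls are also the only controls numbered 5 and 6 and the only Fl/Fl controls, and both are male. Agent, genotype and replicate number therefore cannot be told apart, and sex only in part. Within libraries numbered 5 and 6 the log2 fold change was 1.17 for Skor2 (edgeR adjusted p = 0.00878) and 0.63 for Nkx6-2 (adjusted p = 0.794). Within numbers 1 to 4 it was 1.22 for Skor2 (adjusted p = 0.0307) and 2.13 for Nkx6-2 (adjusted p = 0.0288). The response to Prdm12 loss was also compared between sexes as an interaction, male minus female. On the log2 scale it was -0.30 ± 0.25 SE for Skor2 and -0.42 ± 0.65 SE for Nkx6-2. Neither was called for the interaction (edgeR adjusted p = 0.945 for Skor2 and 0.952 for Nkx6-2), and 0 of all 16384 genes tested were.

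**Figure D4:**
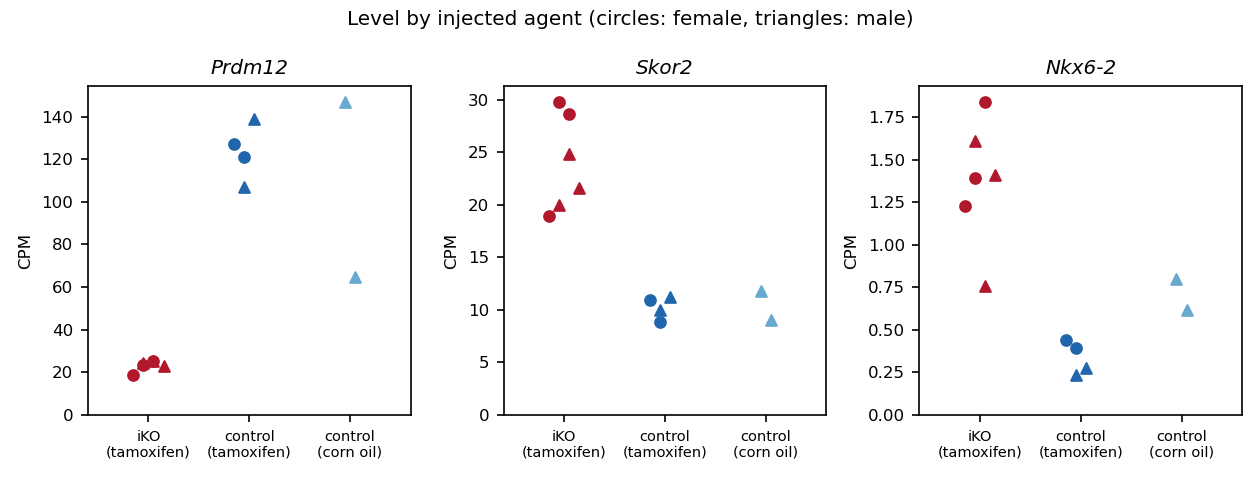
Levels in CPM (y axes, from 0) of Prdm12, Skor2 and Nkx6-2 in iKO libraries (red), tamoxifen-injected controls (dark blue) and corn-oil controls (light blue), with circles for female and triangles for male libraries. Skor2 overlaps between both kinds of control (8.89 to 11.8 CPM), while Nkx6-2 is at 0.236 to 0.440 CPM after tamoxifen and at 0.617 and 0.799 CPM after corn oil. Prdm12 in controls is at 107 to 139 CPM after tamoxifen and at 64.6 and 147 CPM after corn oil.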

How the data were processed

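The mRNA of 12 dorsal root ganglion libraries was sequenced after a TruSeq preparation that does not record strand, per the labels' protocols. The authors deposited whole-number counts of reads for each gene and no normalized values. Base calls, alignment to GRCm39 and counting were by bcl2fastq 2.20.0.422, by STAR 2.7.8a and by featureCounts 2.0.1, per the submitters' processing notes. Which annotation release was counted, and how reads shared between genes were treated, is not given in the sources used here. Symbols, exon lengths, overlaps and neighbours came from GENCODE M21, on the older build GRCm38, by gene identifier (94% of 55416 matched).

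Counts were scaled by TMM and filtered with filterByExpr by group, which left 16384 genes for edgeR 4.0.16 (R 4.3.3, quasi-likelihood test, robust, sex as a term, 9 residual degrees of freedom). All tests were 2-sided. Benjamini-Hochberg adjustment ran over every gene in the fit, and a call needs an adjusted p under 0.05. CPM refers to the TMM-scaled library size. Low counts limit the precision for most members, and intervals cover counting error only. Alternatives included DESeq2 1.42.0, limma 3.58.1 (voom), other scalings, no filter, subsets of libraries and a replicate block. On simulated counts for iKO against control (16243 genes), 75% of 1.5-fold and 88% of 2-fold changes were recovered and 4.68% of calls were false. Those counts were drawn for genes past the filter at all levels, without a sex effect. Each gene was drawn on its own, so a shift of many genes together in a single library, as in iKO 1, was not simulated. The rates therefore do not cover the 33 members below the filter and may not hold for low members or with such a library present. The members and lists were chosen with earlier results of these data known. Values in every library are given for members that were called, had an unadjusted p under 0.05 or were highest by control counts in their detection class, and the others are given by counts and ranges. Library values of Nkx6-1, Dbx2 and Gata2 were added after their values were seen. From each other list the text names the called genes, or the tested gene with the smallest p, and a few genes are not reported here.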

Additional observations from a re-analysis of the deposited data

Results flagged for a closer look

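In 8 cases a single library stood far from the other 5 of its group, for Prdm12, the 10 members that passed the filter, Pax6 and the 8 genes named from other lists; chance alone picks about 1 in 20 groups this way. Several cases fell in iKO 1 and are not independent, so the number of cases cannot be set against that rate. Gata2 was at 7.80 CPM in iKO 1, against 1.79 to 2.39 CPM in the other iKO libraries. Prdm12 was at 18.6 CPM in iKO 1, below the other iKO libraries at 22.9 to 25.4 CPM. The same library was high for Tek (17.4 CPM), Col1a1 (465 CPM) and Cpa3 (6.31 CPM). Its summed endothelial markers, 187 CPM, were the highest and its summed sensory neuron markers, 6530 CPM, the lowest of the 12 libraries, and the part of these cells in its values was not tested. Control 6 was high for Myh4 (47.2 CPM), control 5 for Tbx2 (32.3 CPM), and control 3 for Slc5a7 (8.68 CPM).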

How the results depend on the processing

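The call of Skor2 held in 26 of 28 alternatives, with log2 fold changes of 1.08 to 1.38, and was lost against the corn-oil controls alone (1.10, adjusted p = 0.311) and in female libraries alone (1.38, 0.579). The call of Nkx6-2 held in 18 of 28 and was lost in these settings, within replicates 5 and 6 (0.63), in male libraries (1.40) and with a replicate block with sex as a term (1.33, adjusted p = 0.21), and when iKO 4, iKO 6 or controls 1, 2 or 4 were left out. Members called numbered 2 as reported. They fell to 1 with the replicate block with sex, in replicates 5 and 6 and in male libraries, to 0 against corn-oil controls and in female libraries, and to between 1 and 2 with single libraries left out. Whether the replicate numbers pair the samples is not settled. Same-numbered deviations correlated at -0.153 to 0.217, and 3 of 6 iKO libraries matched their own number best. With a replicate block without sex, added after seeing the data, 161 genes and both members were called (Nkx6-2 1.58, adjusted p = 0.0499). Over all genes, 155 calls became 253 without a filter, 294 with DESeq2, 79 with the replicate block with sex, 235 against tamoxifen-injected controls, 1 against corn-oil controls, 35 in replicates 1 to 4, 82 in replicates 5 and 6, 1 in female and 45 in male libraries. Leaving out single libraries gave 92 (control 1) to 364 (iKO 1) calls, with 93 without iKO 5, 97 without iKO 6 and 103 without control 2. Leaving out iKO 1 and control 6 together, chosen after seeing the data, gave 341. Prdm12 kept its direction, at -2.44 to -2.25 with single libraries left out. Its call was lost against corn-oil controls (-2.13), in replicates 5 and 6 (-2.13) and in male libraries (-2.24). Smaller subsets hold fewer libraries, and the cause of the other changes was not tested.

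Of genes without a call, the sign turned as follows. Gata2 was at 0.15 without the sex term, 0.10 against tamoxifen-injected controls, 0.22 in replicates 1 to 4, 0.57 in female libraries and -0.40 to 0.09 with single libraries left out. Irx3 was at 0.11 against tamoxifen-injected controls, 0.07 in replicates 5 and 6, 0.03 in male libraries and -0.24 to 0.13 with single libraries left out. Bhlhe22 was at -0.13 against corn-oil controls, -0.06 in replicates 5 and 6, -0.07 in male libraries, -0.15 without iKO 1 and control 6, and -0.03 to 0.42 with single libraries left out. Olig3 was at -0.01 in replicates 1 to 4 and -0.05 in female libraries. Pax2 was at -0.10 in replicates 5 and 6 and -0.05 in male libraries. Pax8 was at 0.12 against corn-oil controls and 0.05 in replicates 5 and 6, where Dbx2 was at 0.05 and Tbx2 at -0.01. Mobp was at 0.01 with limma-voom, 0.15 with the replicate block, 0.24 in female libraries and -0.49 to 0.07 with single libraries left out. Col1a1 was at -0.05 against corn-oil controls, -0.06 in replicates 5 and 6 and -0.01 in male libraries. Members detected in all controls numbered 8 at a minimum of 5 counts and 4 at 20.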
